A study of Mus musculus with 9 samples.

Results

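The subunits of oxidative phosphorylation were followed in 9 RNA libraries of mouse acute myeloid leukemia (AML) cells. Members were taken by gene symbol: Nduf genes of families a, b, c, s and v for complex I, Sdha to Sdhd for complex II, Uqcr genes for complex III, Cox4 to Cox8 genes for complex IV, Atp5 genes for complex V, and the protein-coding genes of the mitochondrial chromosome, whose symbols begin with mt-. Names with -ps were left out. This gave 102 of the 55536 gene rows, of which 89 are encoded in the nucleus and 13 in mitochondrial DNA (mt-). Among the 89, Ndufb4c, Cox6c2, Ndufa11b and Ndufs6b are annotated as processed pseudogenes and were kept, since members were taken by symbol. The groups, of 3 libraries each, were labelled AML-WT-c-kit- (below WT c-kit-), then AML-WT-c-kit+ (WT c-kit+), the last being AML-IRF7-/--c-kit+, named below as the labelled knockout. All came from c-kit+ marrow cells that had been infected with an MSCV-MLL-AF9-GFP retrovirus, which carries the MLL-AF9 fusion oncogene and a GFP reporter. The genotype label reads control-GFP overexpression for the WT groups and IRF7-/--GFP overexpression for the third group, and all animals were of strain C57BL/6J. GFP+ leukemia cells, 1000000 per mouse, were given without irradiation to recipients aged 6 to 8 weeks, and cells were sorted from bone marrow on day 18 by the surface receptor c-kit. The labels do not say whether the 3 libraries of a group came from separate mice, so p-values measure the spread between these libraries, which may be technical.

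The respiratory chain passes electrons from NADH (complex I) and succinate (complex II) through complex III to oxygen at complex IV, and the proton gradient built on the way drives ATP synthesis by complex V. Complex II is built from nuclear genes alone. The other complexes join subunits made from mitochondrial DNA, which lie at the center of the membrane domains, with nuclear-encoded subunits that are imported after translation in the cytosol. Leukemia stem cells of AML are known for their reliance on this pathway.

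Values are TPM, a transcript level normalised for length and for the library total. The libraries summed to 987468 to 992231 TPM, and since TPM keeps no read depth, only the spread of 3 libraries shows how precise a level is. Kit, which encodes c-kit, was at 0.52 to 3.03 TPM in WT c-kit-, 50.7 to 58.5 TPM in WT c-kit+ and 70.3 to 85.7 TPM in the third group. Irf7 was at 22.3 to 32.3 TPM in WT c-kit-, 3.36 to 5.31 TPM in WT c-kit+ and 5.97 to 12.8 TPM in the labelled knockout. The listed level of the targeted gene was not lower in the labelled knockout than in WT c-kit+ (log2 fold change 0.89 ± 0.27 SE, limma adjusted p = 0.0321). The difference was above 0 under each of 17 alternatives and lost its call under 8 of them. According to the methods of the study, a cassette stands in place of exons 2 and 3 in this allele. The files hold a single value for the whole gene, which does not separate those exons from the others, so it cannot check the labels, and this group is called by its label throughout. Each of 10 granule and mature neutrophil genes was detected in every library, and their summed level was 6733 to 32514 TPM in WT c-kit-, 58225 to 113682 TPM in WT c-kit+ and 1851 to 2791 TPM in the labelled knockout. The sum hides a split between the WT groups. In WT c-kit+ against WT c-kit-, 5 of the 10 were called higher, 1 lower and 4 did not pass. Their log2 fold changes ranged from -3.79 to 3.98. Of all genes tested there, 14.0% were higher and 27.6% lower. In bulk RNA, fewer cells of a type and less RNA per cell cannot be told apart. Markers of the erythroid, T cell and endothelial or stromal lists summed to at most 18.1, 2.30 and 2.84 TPM, and the B cell list to 26.4 to 38.0 TPM.

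Sequences are shown first for 2 features that bear on how the members can be read. The first is the overlap on the mitochondrial chromosome. The reading frames of mt-Atp8 and mt-Atp6 share 43 bases at chrM:7927-7969 (GRCm38, + strand), in which the capitals mark the start codon of mt-Atp6.

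mt-Atp8 and mt-Atp6: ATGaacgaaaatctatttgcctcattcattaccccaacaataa

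The second is that nuclear chromosome 1 holds unprocessed pseudogenes that copy mitochondrial genes almost base for base. The first 25 bases of mt-Nd3 (chrM:9459-9483, + strand) and of its copy Gm28438 are given as an example, and the capitals mark the base at position 3, counted from the first base of each transcript, which is the only difference in 345 aligned bases.

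mt-Nd3: atTaacctgtacactgttatcttca
Gm28438: atCaacctgtacactgttatcttca

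Of the 89 nuclear rows, 69 were matched by symbol or synonym to a RefSeq promoter window on GRCm38.p6, which spans 250 bases before and 50 bases after the annotated gene start. The palindromic core of sites bound by nuclear respiratory factor 1 (NRF1), a known activator of respiratory chain genes, was found in 5 of the 66 tested members with a window (7.58%) and in 2.44% of the 9493 tested genes with a window. The capitals below mark it, with 10 bases on each side, in the orientation of the gene.

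Atp5g2, chr15:102671070-102671099, - strand: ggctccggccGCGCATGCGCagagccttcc
Atp5k, chr5:108434430-108434459, - strand: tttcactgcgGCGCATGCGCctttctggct
Cox6a1, chr5:115349101-115349130, - strand: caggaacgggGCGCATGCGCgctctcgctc
Ndufa11, chr17:56717692-56717721, + strand: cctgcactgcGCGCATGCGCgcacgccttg
Uqcrc1, chr9:108936668-108936697, + strand: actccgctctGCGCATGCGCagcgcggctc

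The letters AAGATGGCG, the core of a YY1 site, were found in 7 members with a window (10.6% of those tested against 3.83% of all tested genes), and in 6 of the 7 they lay 22 to 35 bases after the gene start. They are shown for Ndufs7 and Ndufs6.

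Ndufs7, chr10:80249463-80249491, + strand: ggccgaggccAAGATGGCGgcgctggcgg
Ndufs6, chr13:73328433-73328459, - strand: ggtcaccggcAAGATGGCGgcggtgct

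The letters CCGGAAG (bound by GABPA, also called NRF2, among other ETS factors) stood in 24.2% of members against 21.4% of tested genes, and TATAAA in 7.58% against 8.43%. Each motif was searched on both strands. All of these are matches of letters only.

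The levels show how the chain is expressed in these cells. The nuclear members, spread over 19 chromosomes, together made up 1.48% to 1.88% of the TPM of a library, and the 13 mt- members made up 4.16% to 5.41%. Atp5b, which encodes the catalytic beta subunit of ATP synthase, stood highest among nuclear members with a mean of 1434 TPM over all libraries, followed by Cox4i1 at 710.5 TPM. Among the mt- members the mean ranged from 315 TPM for mt-Atp6 to 25963 TPM for mt-Atp8. mt-Atp8 is only 204 bases long, and with mt-Atp6 overlapping it the division of reads between them is uncertain. Of the 89 nuclear rows, 79 passed the filter of at least 1 TPM in at least 3 of 6 libraries, and they were the same number in each comparison. The other 10 were at or near 0 and include subunit isoforms of other tissues: Cox4i2 at 0.11 to 0.85 TPM, Cox6a2, Cox8b, Cox8c, Cox7b2 and Ndufa4l2. A second row for Atp5o was at 0 in every library. The pseudogene rows Cox6c2, Ndufa11b and Ndufs6b are also among these 10, while Ndufb4c, at a mean of 158.8 TPM, was tested and counted.

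**Figure D1:**
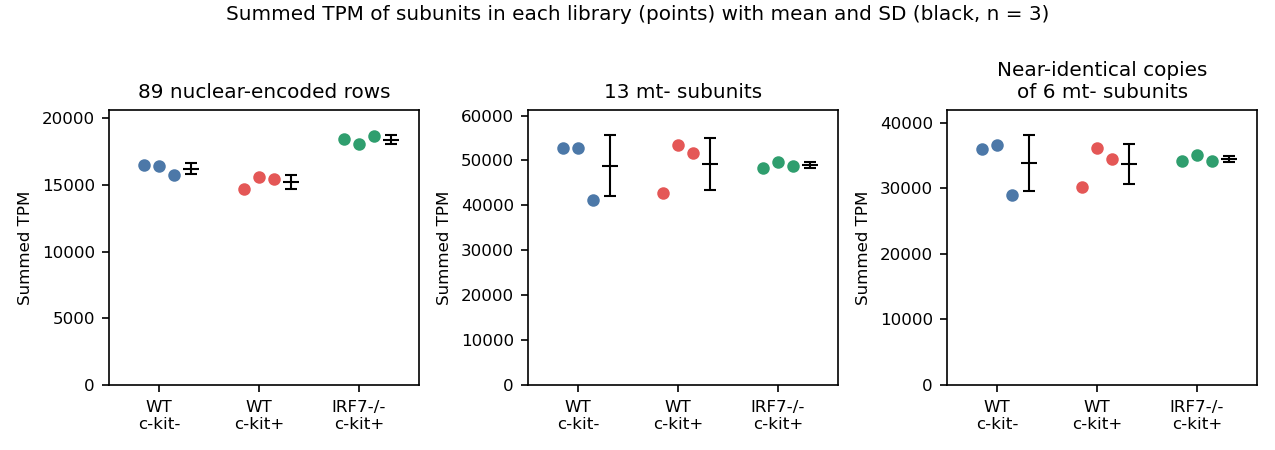
Summed TPM (y axis, from 0) of the nuclear-encoded subunits, the 13 mt- subunits and the near-identical nuclear copies of 6 mt- subunits in the 3 groups (x axis). Points are libraries, and black bars give the mean and SD (n = 3). The nuclear sum of the 3 labelled knockout libraries lies between 18017 and 18656 TPM, above all other libraries, while the mt- sums of the groups overlap. Sums were not rescaled for the mature neutrophil genes.

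The summed level of nuclear members was 15712 to 16454 TPM in WT c-kit-, 14646 to 15590 TPM in WT c-kit+ and 18017 to 18656 TPM in the labelled knockout. These 3 ranges do not overlap. They were not rescaled for the mature neutrophil genes, which lower every other TPM where they are high. Those genes summed to 6733 to 32514 TPM in WT c-kit- and 58225 to 113682 TPM in WT c-kit+. Whether the gap between the WT groups remains under another scaling was not tested for these sums. The sum over mt- members was 48878 ± 6739 TPM (SD, n = 3) in WT c-kit-, 49248 ± 5797 TPM in WT c-kit+ and 48906 ± 677 TPM in the labelled knockout, so its group means differed by less than the spread within either WT group. Replicate 3 of WT c-kit- (41097 TPM) and replicate 1 of WT c-kit+ (42651 TPM) were the lowest, and in their groups they also had the highest sums of mature neutrophil genes (32514 and 113682 TPM). The part of those genes in the mt- sum was not tested. The ratio of the mt- sum to the nuclear sum was 2.62 to 3.22 in WT c-kit-, 2.91 to 3.43 in WT c-kit+ and 2.61 to 2.76 in the labelled knockout. The last did not overlap with WT c-kit+. Much of the mt- sum is mt-Atp8, whose level is uncertain, with a mean of 26912 TPM in WT c-kit+ and 25328.5 TPM in the labelled knockout. From the median TPM of members in place of the sum, the ratio was 8.13 to 9.75 in WT c-kit+. It was 7.59 to 8.41 in the labelled knockout, so by that measure these groups overlap. With 3 libraries against 3, an exact permutation test cannot go below p = 0.1.

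The first comparison, of the labelled knockout with WT c-kit+, concerns the genotype among c-kit+ cells. Nuclear-encoded subunits of all 5 complexes were higher in the labelled knockout, by modest amounts, and the mt- subunits were not called. Of 79 nuclear members tested, 55 were higher and 1, Ndufb3, was lower at an adjusted p under 0.05 (limma, Benjamini-Hochberg over 13238 genes), and 23 did not pass. Among all genes tested, 31.9% were higher and 16.1% lower, 48.0% in all. No nuclear member changed 2-fold, a size reached by 6.30% of all genes upward and 5.39% downward. The median log2 fold change was 0.27 over the nuclear members, within a range of -0.26 to 0.69, and 0.12 over all genes tested, so that changes should be read relative to that shift. The libraries of the groups did not overlap for 61 nuclear members on the higher side (39.0% of all genes) and for 1 on the lower side (20.1%).

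The count depends on how libraries are scaled. The mature neutrophil genes, which alone took 58225 to 113682 TPM of a WT c-kit+ library and at most 2791 TPM of a labelled knockout library, move with these groups and lower every other TPM where they are high. Without the 10 mature neutrophil genes in the total (chosen after seeing the data), the median over all genes became 0.00025 and 31 nuclear members were higher and 4 lower, with 22.1% of all genes higher. Median-ratio scaling gave 29 higher and 4 lower (21.8% of all genes higher), and quantile normalization 33 higher and 2 lower (24.6%). The median of the nuclear members stayed above 0 in each of these, at 0.14, 0.13 and 0.18. Of the 55 higher members, 29 were called higher under each of 17 alternatives, including the removal of each library. Without replicate 1 of the labelled knockout, 36 nuclear members were higher and 0 lower.

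**Figure D2:**
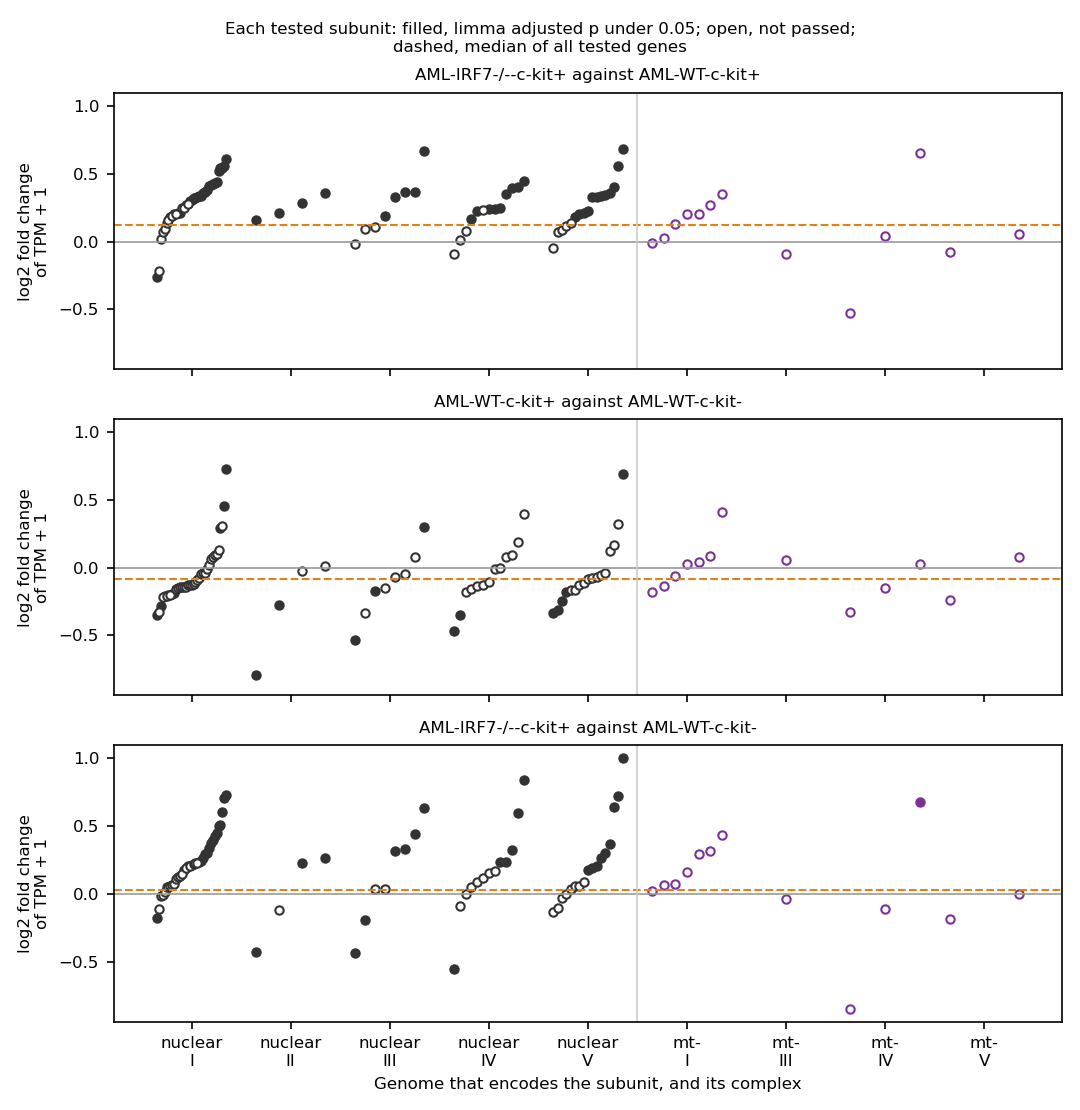
log2 fold change of TPM + 1 (y axis) of each tested subunit in the 3 comparisons, by genome of origin and complex (x axis). Filled points passed an adjusted p under 0.05 and open points did not, and the dashed line is the median of all tested genes. In the top panel 55 of 79 nuclear points are filled above 0, and 0 of 13 mt- points are filled.

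Complex I takes electrons from NADH and is the largest of the chain, with core subunits that carry the flavin and iron-sulfur clusters and many accessory subunits around them. Of 37 nuclear members tested, 25 were higher and 1 lower. Of the nuclear core subunits, Ndufs3, Ndufs8 and Ndufs7 were higher and stayed so under all 17 alternatives. Ndufv1 was called higher too (0.20, limma adjusted p = 0.0296), but not under median-ratio scaling, quantile normalization or scaling without the mature neutrophil genes. Its call was lost under 8 of the 17 alternatives. Ndufs1 and Ndufv2, which hold iron-sulfur clusters of the NADH-oxidizing arm, did not pass. Ndufs3, a core subunit of the arm that passes electrons to ubiquinone (chr2:90894634-90904827, GRCm38, - strand, 7 exons), was at 52.9, 59.1 and 49.2 TPM in WT c-kit+ and at 78.8, 82.3 and 77.7 TPM in the labelled knockout. Every labelled knockout library was above every WT c-kit+ library (log2 fold change 0.56 ± 0.08 SE, limma adjusted p = 0.00162), and the gene overlaps Kbtbd4 on the other strand, whose reads an unstranded kit cannot tell apart. Ndufa12, an accessory subunit of the NADH-oxidizing arm (chr10:94198720-94221443, + strand), was at 116, 136 and 118 TPM in WT c-kit+ and at 184, 190.4 and 188 TPM in the labelled knockout. This was the largest rise of the complex (0.61 ± 0.07 SE, adjusted p = 9.64e-04).

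Ndufa4, first named as a subunit of complex I and since found with complex IV, was at 256, 279 and 276 TPM in WT c-kit+ cells against 392, 376 and 414 TPM in the labelled knockout (log2 fold change 0.54 ± 0.06 SE, limma adjusted p = 8.26e-04). Its replacement isoform Ndufa4l2, known for its induction in low oxygen, was at most at 1.0 TPM. Ndufb3, a small accessory subunit of the membrane arm, went the other way, with 178, 163 and 175 TPM in WT c-kit+ cells against 139, 131 and 162 TPM in the labelled knockout. The groups did not overlap, but 162 and 163 TPM nearly met, and the call (log2 fold change -0.26 ± 0.09 SE, adjusted p = 0.0479) was lost without the filter on low values, without replicate 1 or 2 of the labelled knockout, and without any 1 of the WT c-kit+ replicates.

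Complex II, succinate dehydrogenase, is also an enzyme of the TCA cycle. All 4 members were called higher, but only Sdhb stayed so under every alternative scaling. Sdhb, the iron-sulfur subunit (chr4:140961203-140979193, + strand, 8 exons), was at 70.6, 71.6 and 70.2 TPM in WT c-kit+ and at 90.7, 94.4 and 88.4 TPM in the labelled knockout (log2 fold change 0.36 ± 0.05 SE, limma adjusted p = 0.00171). The membrane anchor Sdhd rose by 0.29 ± 0.06 SE on the log2 scale (adjusted p = 0.00726), and lost the call under median-ratio scaling. The flavoprotein Sdha and the anchor Sdhc, at 0.16 and 0.21 beside the median of 0.12 over all genes, lost theirs under 9 and 14 of the 17 alternatives.

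Complex III passes electrons from ubiquinol to cytochrome c. Of 8 members, 5 were higher. Uqcrq, a small subunit of the complex (chr11:53427922-53430831, - strand), was at 134, 185 and 149 TPM in WT c-kit+ and at 247, 218 and 277 TPM in the labelled knockout (log2 fold change 0.67 ± 0.14 SE, limma adjusted p = 0.00758). Uqcr10 followed at 0.37 ± 0.07 SE (adjusted p = 0.00529). The Rieske iron-sulfur protein Uqcrfs1 did not pass, with 79.9 to 87.2 TPM against 82.8 to 98.8 TPM.

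Complex IV, cytochrome c oxidase, has nuclear subunits that come in isoforms. Of 13 members tested, 9 were higher. Cox7a2 was at 186, 168 and 169 TPM in WT c-kit+ and at 236, 215 and 242 TPM in the labelled knockout (log2 fold change 0.40 ± 0.07 SE, limma adjusted p = 0.00361). Its relative Cox7a2l was at 205 to 227 TPM and 191 to 219.7 TPM, with groups that overlap. Cox6b2, an isoform best known from testis, was plainly expressed, at 180.1, 207 and 193 TPM in WT c-kit+ cells against 281, 243 and 266 TPM in the labelled knockout (0.44 ± 0.08 SE, adjusted p = 0.004). The common isoform Cox6b1 was at 369 to 452 TPM and 449 to 506 TPM and did not pass (adjusted p = 0.0762). Cox4i1, the common isoform of subunit 4, was at 566, 634 and 604 TPM and at 772, 733 and 793 TPM (0.35 ± 0.07 SE, adjusted p = 0.00524). Cox8a lay at 549.8 to 609 TPM and 581 to 587 TPM and did not pass.

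Complex V, ATP synthase, uses the proton gradient. Of 17 members tested, 12 were higher. Atp5g1, Atp5g2 and Atp5g3 encode the same mature c subunit of the membrane ring behind different import sequences. Atp5g1 (chr11:96068852-96075670, - strand) was at 129, 162 and 139 TPM in WT c-kit+ and at 219, 204 and 209 TPM in the labelled knockout (log2 fold change 0.56 ± 0.09 SE, limma adjusted p = 0.00272). Atp5g3 was at 249.9, 262 and 255 TPM and at 276, 274 and 264 TPM, and its log2 fold change of 0.084 (adjusted p = 0.19) turned below 0 under median-ratio scaling, quantile normalization and scaling without the mature neutrophil genes. Atp5g2 (chr15:102662864-102672352, - strand) was at 20.8, 22.5 and 18.9 TPM and at 33.9, 31.9 and 36.0 TPM, the largest rise among nuclear members (0.69 ± 0.09 SE, adjusted p = 0.0012).

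The level of Atp5g2 is uncertain, because the transcribed processed pseudogene Gm10175 is identical to it over 645 bases and was listed at a mean of 566 TPM. The sum of both was 508 to 559 TPM in WT c-kit+ and 677 to 711 TPM in the labelled knockout, with a smaller log2 fold change of 0.40 ± 0.06 SE that stayed called (limma adjusted p = 0.00211). Adding copies in the same way kept Atp5l (0.33, adjusted p = 0.0165) and removed the calls of Cox7c (adjusted p = 0.12) and Ndufb4 (adjusted p = 0.169), whose copies Gm12338 and Ndufb4c were listed above them. Gm12338 aligns over only 35.6% of Cox7c and Ndufb4c over 40.2% of Ndufb4. Since TPM is normalised for length, such partial copies weigh more in a sum than their reads do. The sums were formed after seeing the data. Of the 89 nuclear rows, 31 overlap a gene on the other strand and 14 a gene on the same strand.

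**Figure D3:**
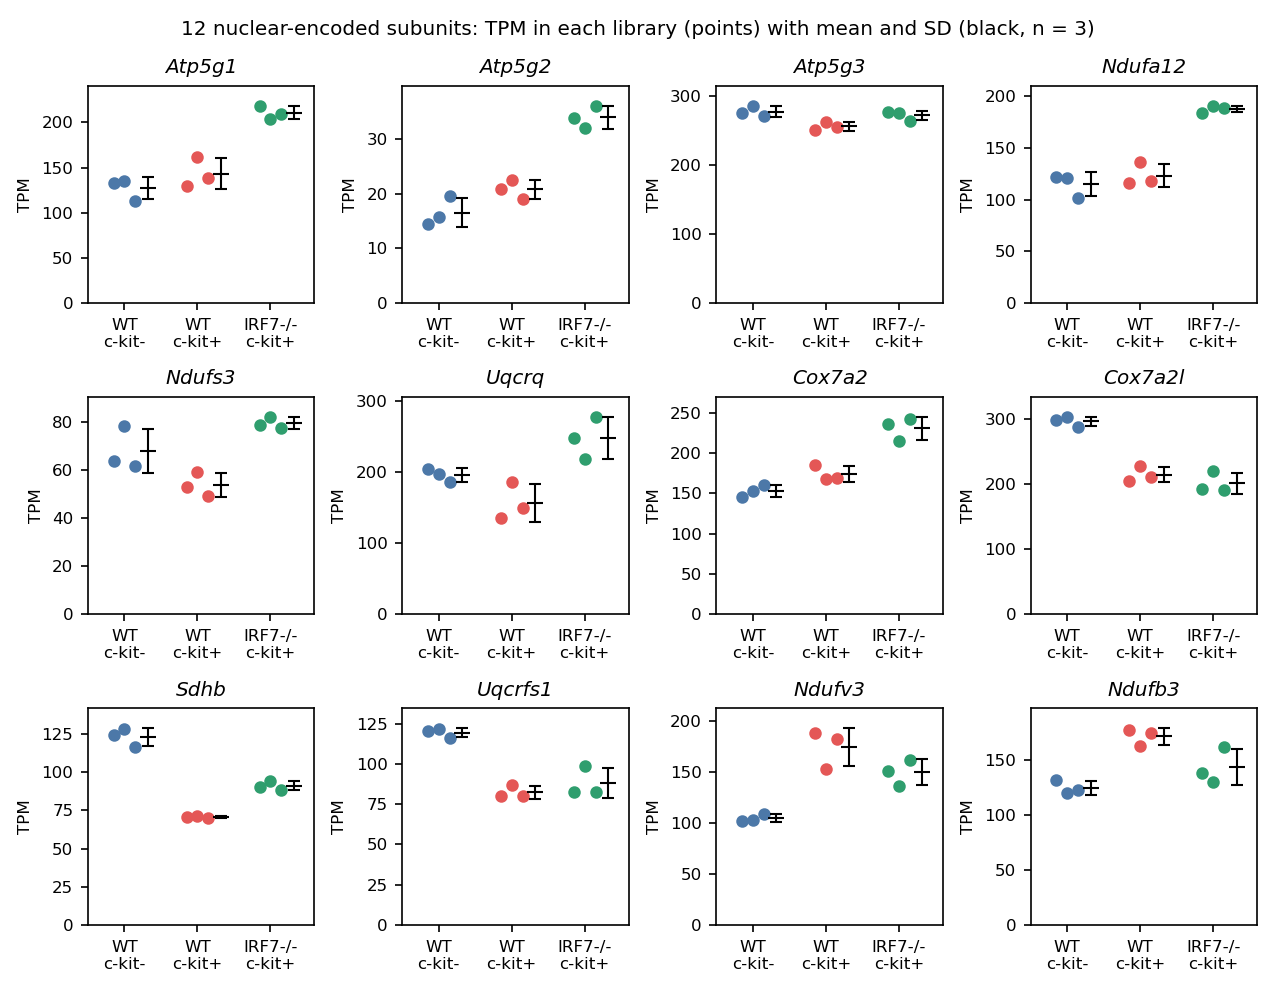
TPM (y axis, from 0) of 12 nuclear-encoded subunits in the 3 groups (x axis). Points are libraries, and black bars give the mean and SD (n = 3). Atp5g1, Atp5g2, Ndufa12 and Cox7a2 are highest in the labelled knockout, Cox7a2l, Sdhb and Uqcrfs1 are highest in WT c-kit-, and Ndufb3 is highest in WT c-kit+.

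Of the mt- members, 0 of 13 passed in this comparison by limma, and 1 had an unadjusted p under 0.05. Their median log2 fold change was 0.054, within a range from -0.53 for mt-Co2 (adjusted p = 0.141) to 0.65 for mt-Co3 (adjusted p = 0.215). The median turned to -0.080 under median-ratio scaling and to -0.078 under scaling without the mature neutrophil genes. mt-Co1, the catalytic subunit of cytochrome c oxidase, was at 7712, 8816 and 8434 TPM in WT c-kit+ and at 8442, 8852 and 8347 TPM in the labelled knockout. mt-Cytb, the cytochrome b of complex III, was at 2911, 3451 and 3458 TPM and at 2990, 2992 and 3197 TPM. The groups overlap for each. mt-Nd1, a subunit of the membrane arm of complex I, was at 2239, 2918 and 2650 TPM and at 3059, 3211 and 3087 TPM and did not overlap (adjusted p = 0.0817). Leaving out replicate 2 of WT c-kit+ gave 3 mt- members higher, and leaving out replicate 1 of the labelled knockout gave 1.

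For 6 of the 13 (mt-Atp6, mt-Co1, mt-Co2, mt-Co3, mt-Nd3 and mt-Nd4l), the annotation holds a copy on chromosome 1 of at least 99.7% identity over 294 to 783 bases that was listed at a mean of at least 1 TPM, and these copies took 28935 to 36576 TPM in a library. All of these 6 but mt-Co1 (1.27-fold) varied more over the 9 libraries, by 1.92-fold to 3.86-fold between the highest and the lowest, than the other 7, for which it was at most 1.55-fold. Of those 7, mt-Nd2, mt-Nd4 and mt-Nd5 also have a copy in the annotation, at a mean under 1 TPM. mt-Co2 itself was listed at 575, 628 and 758 TPM in WT c-kit+ and at 568, 291 and 552 TPM in the labelled knockout, while its copy Gm28661 was at 8931 to 10493 TPM and 10372 to 10883 TPM. The gene held only 2.61% to 11.5% of the sum of the pair in a library. mt-Co3 was listed at 635, 1325 and 404 TPM in WT c-kit+ and at 1049, 996 and 1263 TPM in the labelled knockout. Summed with Gm28437, it was at 7200 to 8236 TPM and 8597 to 8725 TPM.

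With copies added, the log2 fold changes were 0.075 ± 0.11 SE for mt-Co2 and 0.17 ± 0.10 SE for mt-Co3, and neither passed (limma adjusted p = 0.604 and 0.198). A level of these 6 genes alone should thus be read together with its copy. For mt-Co1 the copy aligns over only 31.3% of the gene. The sum of mt- members and copies was 82695 ± 10974 TPM (SD, n = 3) in WT c-kit-, 82881 ± 8839 TPM in WT c-kit+ and 83372 ± 1162 TPM in the labelled knockout. The ratio of that sum to the nuclear sum was 4.46 to 5.44, 4.98 to 5.75 and 4.45 to 4.70. mt-Nd6 is the only mt- member on the other strand of the chromosome, where its end overlaps that of mt-Nd5, and it was at 819 to 1226 TPM. Reads from opposite strands cannot be told apart, since the kit does not mark strand.

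**Figure D4:**
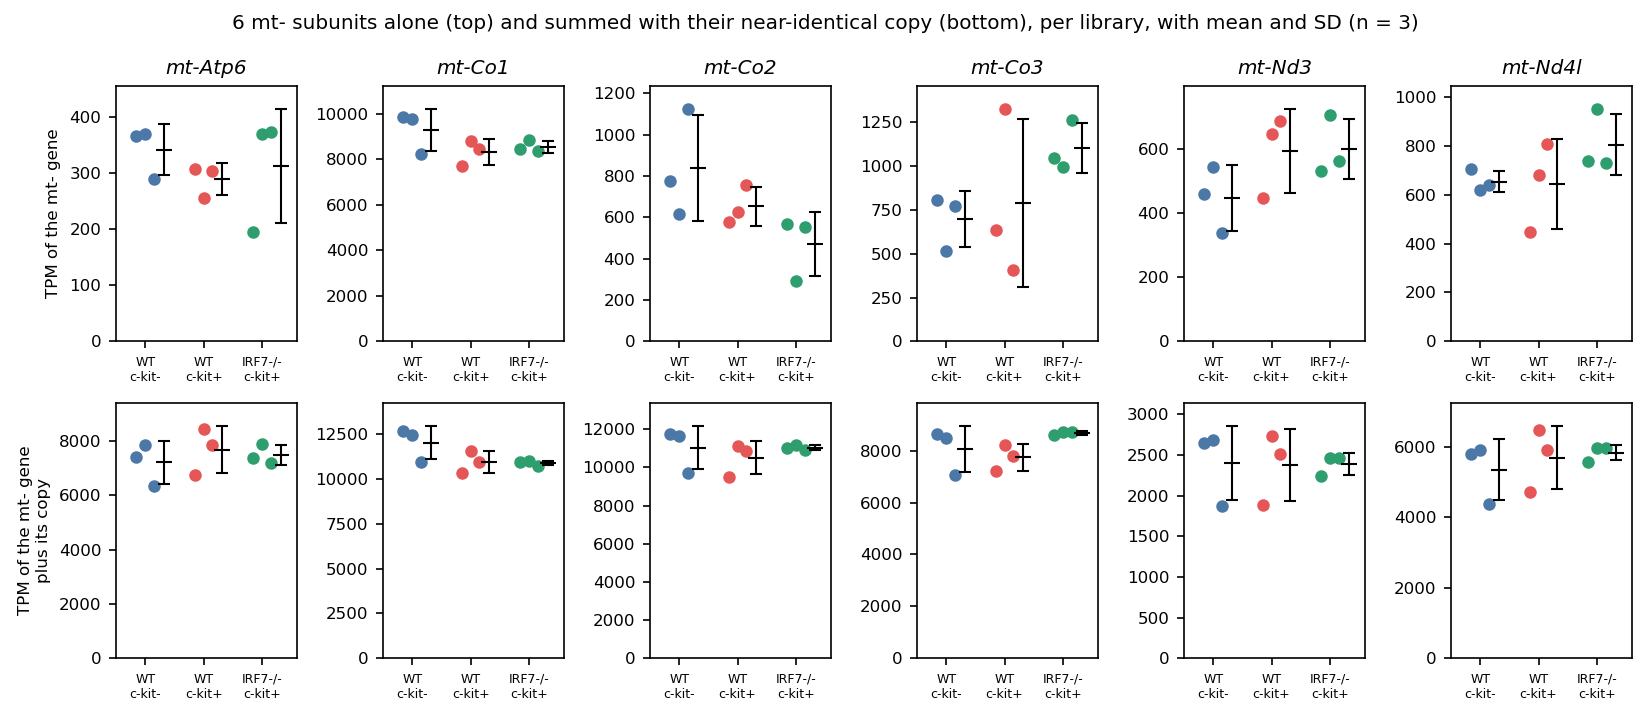
TPM (y axis, from 0) of 6 mt- subunits listed alone (top row) and summed with their near-identical nuclear copy (bottom row) in the 3 groups (x axis). Points are libraries, and black bars give the mean and SD (n = 3). mt-Co3 spans 404 to 1325 TPM alone in WT c-kit+ and 7200 to 8236 TPM when summed with its copy.

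In the second comparison, of WT c-kit+ with WT c-kit-, the question is how the WT populations sorted by c-kit differ. Nuclear members did not move as a block. Of 79 tested, 5 were higher and 16 lower (14.0% and 27.6% of 13261 genes tested, 41.6% in either direction), and the median log2 fold change was -0.11 against -0.082 over all genes. No nuclear member changed 2-fold (4.83% of all genes higher and 9.61% lower). The libraries did not overlap for 11 members on the higher side and 32 on the lower (19.7% and 34.7% of all genes). This split of calls turned with the scaling: it was 13 higher and 8 lower by median ratio, 14 and 8 without the mature neutrophil genes, and 16 and 4 by quantile normalization, which put the median at 0.057. It also rested on single libraries. The count of lower members was 10 or 9 without replicate 1 or 3 of WT c-kit+, and 8 without replicate 1 or 2 of WT c-kit-. Calls under every one of the 17 alternatives were 4 higher (Ndufv3, Atp5s, Ndufb3 and Uqcrb) and 4 lower (Sdhb, Uqcrfs1, Cox7a2l and Cox4i1).

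Sdhb fell most. It was at 124, 128 and 117 TPM in WT c-kit- against 70.6, 71.6 and 70.2 TPM in WT c-kit+, and fell by 0.79 ± 0.06 SE on the log2 scale (limma adjusted p = 9.80e-05). Sdha, the other catalytic subunit of complex II, went from 136 ± 3.18 to 112 ± 3.53 TPM (SD, n = 3) and was called lower (adjusted p = 0.00594), though not by quantile normalization, while the anchors Sdhc (61.7 ± 2.31 and 62.3 ± 2.69 TPM) and Sdhd (131 ± 1.99 and 129 ± 7.22 TPM) differed by less than their spread. Uqcrfs1 was at 120.4, 122 and 116 TPM in WT c-kit- and 79.9, 87.2 and 80.1 TPM in WT c-kit+ (log2 fold change -0.53 ± 0.06 SE, adjusted p = 5.81e-04). Cox7a2l was at 298, 302 and 288 TPM and at 205, 227 and 209.8 TPM (-0.47 ± 0.06 SE, adjusted p = 0.00113). For each of Sdhb, Uqcrfs1 and Cox7a2l the groups lie far apart compared with their spread.

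Ndufv3, an accessory subunit beside the NADH-binding site, went up, from 102, 103 and 109 TPM in WT c-kit- to 188, 153 and 182 TPM in WT c-kit+ (0.73 ± 0.09 SE, limma adjusted p = 8.46e-04). Ndufb3 was at 132, 120.3 and 123 TPM and at 178, 163 and 175 TPM (0.45 ± 0.06 SE, adjusted p = 0.00163). Atp5s, a low member counted here with complex V by its symbol, was at 9.3, 7.5 and 7.2 TPM and at 13.9, 15.9 and 11.1 TPM (0.69 ± 0.16 SE, adjusted p = 0.0126). Uqcrb, the ubiquinone-binding subunit of complex III, rose by 0.30 ± 0.06 SE on the log2 scale (adjusted p = 0.00982). Of the mt- members, 0 of 13 passed by limma and 0 had an unadjusted p under 0.05, with a range from -0.32 for mt-Co2 to 0.41 for mt-Nd3.

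The third comparison sets the labelled knockout against WT c-kit-. It shares libraries with each of the others and is given for its own values. Of 79 nuclear members, 38 were higher and 5 lower (30.7% and 28.7% of 13510 genes tested, 59.4% in either direction), and 25 of the higher and 3 of the lower ones were called under all 17 alternatives. The lower ones that were called under all of them were Cox7a2l, Uqcrfs1 and Sdhb. The median log2 fold change was 0.19 against 0.030 over all genes. The libraries did not overlap for 42 members on the higher side and 8 on the lower (34.7% and 32.4% of all genes). Median-ratio scaling gave 33 higher, and quantile normalization 48. The count of lower members was 3 without replicate 1 or 3 of the labelled knockout or replicate 1 of WT c-kit-.

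Atp5g2 was the only member with a 2-fold change (1.00 ± 0.12 SE, limma adjusted p = 5.31e-04), against 8.40% of all genes higher and 11.9% lower by that size, and summed with its copy the value was 0.37 ± 0.05 SE. Cox6b2, at 178, 141 and 125 TPM in WT c-kit-, had a log2 fold change of 0.84 ± 0.13 SE (adjusted p = 0.00165). Atp5g1 rose by 0.73 ± 0.08 SE (adjusted p = 3.20e-04) and Uqcrb by 0.63 ± 0.06 SE (adjusted p = 2.19e-04). Ndufb2, an accessory subunit of complex I that overlaps Braf on the other strand, had a value of 0.73 ± 0.19 SE (adjusted p = 0.0144) whose call was lost without replicate 1 of the labelled knockout. Cox4i1 was at 762 to 766 TPM in WT c-kit- and 733 to 793 TPM in the labelled knockout, and Atp5g3 at 270.2 to 285 TPM and 264 to 276 TPM, so both overlap. Of the mt- members only mt-Co3 passed (0.68 ± 0.18 SE, adjusted p = 0.0171), and summed with its copy it did not (0.11 ± 0.10 SE, adjusted p = 0.358), nor without replicate 3 of the labelled knockout. mt-Co2 had the lowest value, -0.85 (adjusted p = 0.0527), and 0.0054 when summed with its copy.

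**Figure D5:**
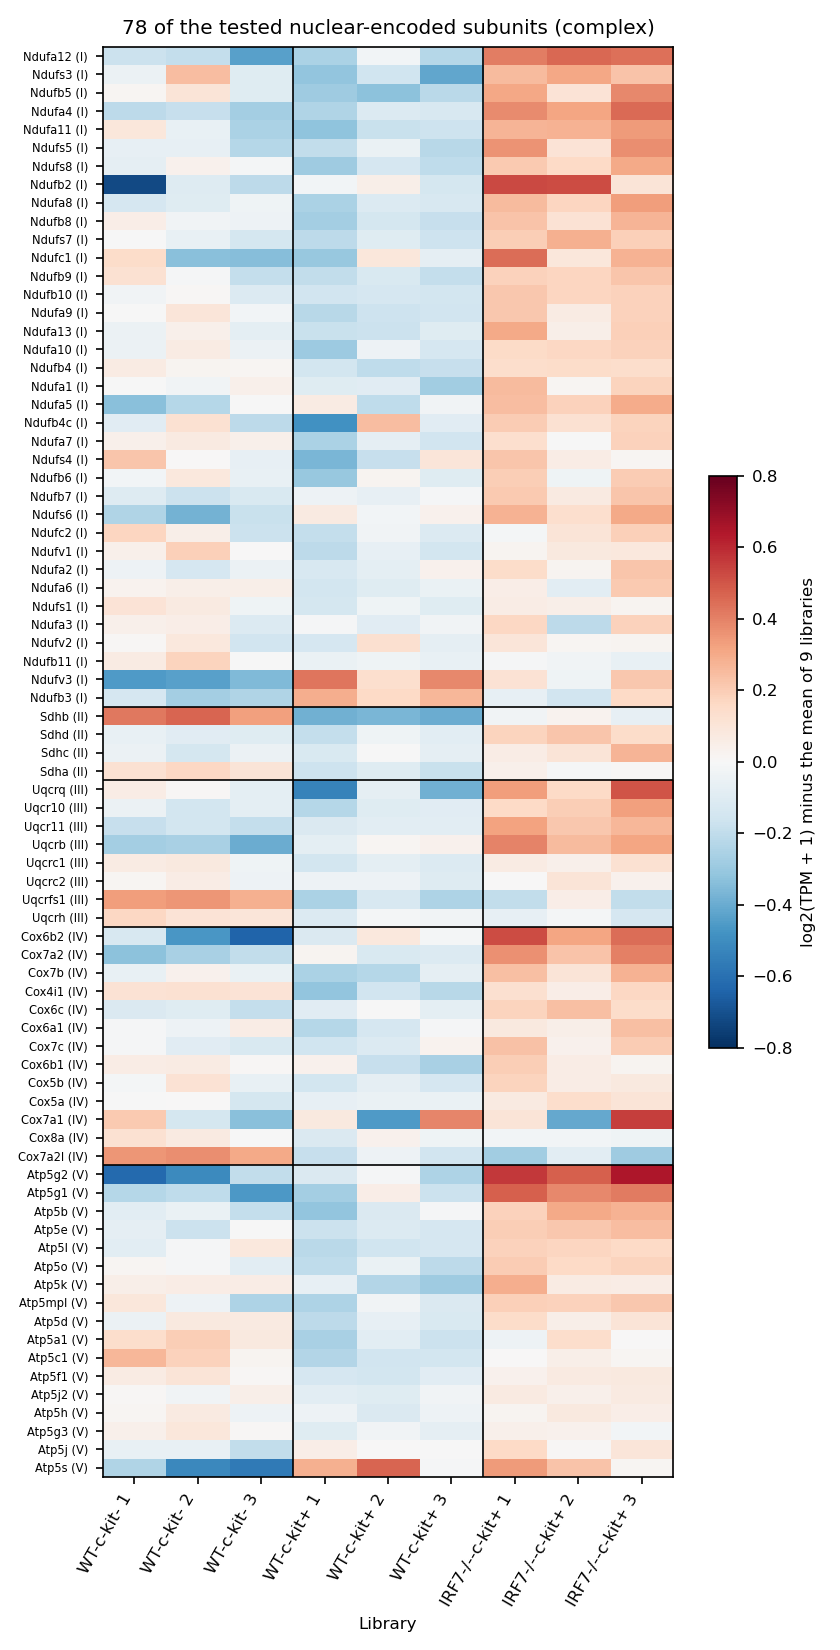
Level of 78 of the 79 tested nuclear-encoded subunits (rows, with their complex) in the 9 libraries (columns), as log2(TPM + 1) minus the mean of the 9 libraries, with red above and blue below that mean. The 3 columns on the right, labelled IRF7-/--c-kit+, are red for most rows of each complex, and Sdhb, Uqcrfs1 and Cox7a2l are red in the 3 columns on the left.

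Set side by side, Sdhb was highest in WT c-kit- (117 to 128 TPM), lower in the labelled knockout (88.4 to 94.4 TPM) and lowest in WT c-kit+ (70.2 to 71.6 TPM), with no overlap between neighbours. The order for Cox7a2l put WT c-kit- first (288 to 302 TPM), and its c-kit+ groups did not differ beyond their spread. Uqcrb ran the other way, from 247 to 272 TPM in WT c-kit- through 309 to 333 TPM in WT c-kit+ to 387 to 428 TPM in the labelled knockout, again with no overlap.

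The 5 members with the NRF1 letters shown above were all called higher in the first comparison (0.69 for Atp5g2, 0.52 for Ndufa11, 0.33 for Atp5k, 0.24 for Cox6a1 and 0.19 for Uqcrc1, as log2 fold changes). In the second comparison 0 of them were called higher and 1 was lower, and in the third 2 were higher. Of the 7 with the YY1 letters, 4 were higher in the first comparison. These are counts of few genes. In the first comparison 31.9% of all genes and 69.6% of the tested nuclear members were higher. In the second, 14.0% of all genes were higher and 27.6% lower, against 6.33% and 20.3% of the nuclear members. In the third, 30.7% of all genes and 48.1% of the nuclear members were higher. In the first comparison Atp5g2 and Ndufa11 stayed called under each scaling. Atp5k, Cox6a1 and Uqcrc1 lost the call under median-ratio scaling, quantile normalization and scaling without the mature neutrophil genes. Over 17 alternatives, which include the removal of each library, the call was lost under 11 for Cox6a1, 7 for Uqcrc1 and 6 for Atp5k. The value of Uqcrc1 lies near the median of 0.12 over all genes.

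Other genes of the pathway were followed in lists. Their counts stand beside shares of all tested genes of 31.9% higher and 16.1% lower in the first comparison, 14.0% and 27.6% in the second, and 30.7% and 28.7% in the third, and beside a median log2 fold change over all genes of 0.12 in the first. Assembly factors build the complexes but do not stay in them. In the first comparison 23 of 44 tested were higher and 1 lower, with a median log2 fold change of 0.31, and the smallest adjusted p belonged to Ndufaf8 (30.4 ± 1.60 against 48.9 ± 0.33 TPM, SD, n = 3; log2 fold change 0.67, limma adjusted p = 3.68e-04) and Ecsit (0.72, adjusted p = 7.23e-04), both factors of complex I assembly. In the second comparison 2 were higher and 3 lower, among them Ndufaf7, a methyltransferase of complex I assembly, at 46.0 ± 5.08 TPM in WT c-kit- and 19.4 ± 1.70 TPM in WT c-kit+ (-1.20 ± 0.11 SE, adjusted p = 2.10e-04). In the third, 23 were higher and 4 lower, with Ndufaf7 at -1.42 and Cox18, an insertase for a mitochondrially made subunit of complex IV, at 1.11.

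Genes for the upkeep and expression of mitochondrial DNA are all nuclear. Of 27 tested, 14 were higher and 0 lower in the first comparison, 4 and 1 in the second, and 18 and 1 in the third. The higher share in the second (14.8%) is near that of all genes (14.0%). Top1mt, the mitochondrial topoisomerase, was at 6.10 ± 0.94 TPM in WT c-kit-, 7.95 ± 1.22 TPM in WT c-kit+ and 17.7 ± 1.19 TPM in the labelled knockout (SD, n = 3). Its log2 fold change was 1.07 ± 0.12 SE in the first comparison (limma adjusted p = 8.39e-04). Polg2, the accessory subunit of the mitochondrial DNA polymerase, was lower in WT c-kit+ than in WT c-kit- (-0.98 ± 0.10 SE, adjusted p = 4.30e-04).

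Of 9 regulators of mitochondrial biogenesis tested in the first comparison, 2 were higher and 1 lower (22.2% and 11.1%, below the 31.9% and 16.1% of all genes). Nfe2l2, the regulator of the antioxidant response, was at 51.2 ± 3.69 TPM in WT c-kit+ and 32.3 ± 1.87 TPM in the labelled knockout (SD, n = 3; log2 fold change -0.65, limma adjusted p = 9.55e-04) and Gabpb1, a partner of GABPA, at 27.5 ± 2.46 and 34.4 ± 1.01 TPM (0.32, adjusted p = 0.0172). The call of Gabpb1 was lost under 4 of the 17 alternatives. A list of 17 genes covers the TCA cycle and, with Dlat, the pyruvate dehydrogenase that feeds it. In the first comparison 10 were higher and 0 lower, led by Suclg2 (0.61) and Dlat (0.60). The second gave 2 higher and 6 lower, where Fh1, fumarase, fell by 0.65 on the log2 scale, and the third 6 and 1. In the second the shares (11.8% and 35.3%), and in the third the higher share (35.3%), lie near those of all genes. Of 6 electron carriers and related genes, 5 were higher in the first comparison. Etfb, a subunit of the flavoprotein that brings electrons from fatty acid oxidation to the chain, was at 199 ± 24.2 TPM in WT c-kit-, 477 ± 43.3 TPM in WT c-kit+ and 791 ± 71.3 TPM in the labelled knockout. It was called higher in every comparison, by 0.73, 1.26 and 1.99 on the log2 scale.

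Ribosomal genes were also higher in the first comparison. Subunits of the mitochondrial ribosome, which translates the mt- messages, were higher for 61 of 78, with a median log2 fold change of 0.37, and those of the cytosolic ribosome for 49 of 80, with a median of 0.29, against 31.9% of all genes and a median of 0.12. The nuclear subunits of oxidative phosphorylation, at 55 of 79 and 0.27, lay beside these lists, and a test that sets them apart was not made.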

How the data were processed

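RNA of GFP+ leukemia cells was profiled in 9 libraries, grouped by their labels. The authors deposited a single matrix of TPM, covering 55536 genes, and its unit was taken from the values. The kit (Illumina TruSeq RNA v2) does not mark strand. Aligner, quantifier and build are not given in the sources used here. Every identifier matched the GENCODE M21 annotation (GRCm38), from which coordinates, overlaps and, by blastn (BLAST 2.17.0), copies of at least 95% identity over at least 100 bases and 50% of the shorter transcript were taken. TPM is relative, so genes that take a large share lower all others. It keeps no read depth. A gene was tested if 3 or more of the 6 libraries in a comparison reached 1 TPM, with limma 3.58.1 (R 4.3.3, trend) on log2(TPM + 1), each pair of groups alone. P-values were adjusted by Benjamini-Hochberg over all genes, with a call under 0.05. Fold changes on this scale understate those of low genes. The procedure was tested on simulated data in which few genes changed, as many up as down. That setting holds no shift over all genes like the median of 0.12 in the first comparison, so it does not cover the effect of scaling.

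Named genes were the 13 mt- members, 7 nuclear core complex I subunits, isoforms, the 2 largest rises and 2 largest falls per complex, members past 2-fold, Irf7, Kit, and from 5 pathway lists the genes past 2-fold or, failing that, the 2 smallest adjusted p. Other members given with values were chosen after their values were seen. The members and lists were chosen with earlier results of these data known. Alternatives were other filters, a pseudocount of 0.1, other scalings, a joint fit, a replicate block and the removal of each library. No sample was left out. 1 member is counted with the others but not reported here by name.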

Additional observations from a re-analysis of the deposited data

How the results depend on the processing

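Of 1496 values of 88 named genes and comparisons under the alternatives, 1323 kept direction and side of the threshold, 158 lost the call, 7 gained it and 8 changed sign. In labelled knockout against WT c-kit+, nuclear members were 33 higher and 2 lower (median log2 fold change 0.18) by quantile normalization, 29 and 4 (0.13) by median-ratio scaling, and 31 and 4 (0.14) without mature neutrophil genes. Leaving out a library gave 36 to 52 higher, 0 to 1 lower and medians of 0.23 to 0.32. The mt- members were 1 higher and 1 lower by quantile normalization, their median was -0.080 by median ratio and -0.078 without neutrophil genes, and leaving out a library gave 0 to 3 higher with medians of 0.015 to 0.15. Atp5g3 turned to -0.023 (quantile), -0.049 (median ratio) and -0.047 (without neutrophil genes), and mt-Co2 to 0.075 with its copy added. In WT c-kit+ against WT c-kit-, nuclear members were 16 higher and 4 lower (median 0.057) by quantile normalization, 13 and 8 (-0.0061) by median ratio and 14 and 8 (-0.0078) without neutrophil genes. Leaving out a library gave 4 to 6 higher, 8 to 14 lower, medians of -0.14 to -0.079, and 0 to 1 mt- members lower with medians of -0.12 to 0.13. Uqcrh turned to 0.041 (quantile) and mt-Nd3 to -0.013 (copy added). In labelled knockout against WT c-kit-, quantile normalization gave 3 nuclear members lower (median 0.26) and 2 mt- members higher. Exactly 1 mt- member was lower with a filter of 5 TPM, without mt- genes in the total, and without mt- genes and their copies. The fit of all 9 libraries gave 0 mt- members higher and 1 lower, and adding copies 0 higher. Leaving out a library gave 26 to 37 nuclear members higher and 3 to 6 lower (medians 0.17 to 0.23), and 0 to 3 mt- members higher and 0 to 1 lower (medians -0.051 to 0.13). Atp5g3 turned to 0.036 (quantile) and mt-Co2 to 0.0054 (copy added). The ratio of mt- to nuclear members from median TPM had a mean of 9.07 in WT c-kit-, 8.98 in WT c-kit+ and 8.08 in the labelled knockout. By library it was 8.13 to 9.75 in WT c-kit+ and 7.59 to 8.41 in the labelled knockout, which overlap. The cause of these shifts was not tested. Of 64 further uncalled values, 41 changed sign under at least 1 alternative and 22 were called under at least 1.

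Whether replicate numbers pair the samples could not be settled. Deviations from the group means correlated at -0.07 to 0.24 in the 9 same-numbered pairs, most of them positive, with 1 above 0.1. Differently numbered pairs correlated at -0.18 to 0.14, and most were negative. Deviations cancel within a group, so these signs are tied to those of the same-numbered pairs and are not a separate observation. The main fits did not use the numbers. With the replicate block, nuclear members were 50 higher and 2 lower, 5 and 14, and 34 and 4 in the order of comparisons above, and in the last 3 mt- members were higher and 1 lower. Scaling without neutrophil genes, scaling without mt- genes and copies, and adding copies were chosen after seeing the data. Where leaving out a library left 2 in its group, the spread was pooled. TPM holds no depth, so no limit from counting error can be given.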
